A study of Mus musculus with 2 samples.

Results

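Smooth muscle cells and pericytes, the contractile cells that wrap blood vessels and ducts, were followed in the mouse pancreas through 9 genes: Acta2, Myh11, Cnn1, Tagln, Actg2, Lmod1, Des, Rgs5 and Pdgfrb. The genes were chosen by name as markers of these cells, and all 9 were matched by gene identifier among the 43346 gene rows of each table. The tissue was taken at 10 weeks of age from 1 female adult of strain C57BL/6J, with no treatment or allele given, and its polyadenylated RNA was read in 2 libraries. Per the labels, the libraries are technical replicates 1 and 2 of 1 biological sample, and replicate 2 was made in May 2015. There is thus 1 group and 1 animal, no comparison of conditions, and every spread given here is technical.

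In smooth muscle, force comes from myosin filaments pulling on actin filaments, and the filaments are anchored by intermediate filaments such as desmin. Much of this gene set is switched on by serum response factor with its coactivator myocardin, which act on the CArG box, a short AT-rich DNA element. Pericytes sit on capillaries, carry the PDGF receptor beta and depend on PDGF-B from endothelial cells. In the pancreas such cells line arteries, veins, larger ducts and the capillaries of acini and islets.

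Levels are deposited TPM, a share of all transcripts that corrects for transcript length and allows genes to be compared within a library. Depth was alike, with 9441559 expected counts for replicate 1 and 9797569 for replicate 2. Mitochondrial genes with Gm42418, Gm26917 and Lars2 took 35.3% of these counts in replicate 1 and 51.2% in replicate 2, so fewer counts were left for all other genes in replicate 2. Within this sum, the mitochondrial genes held 17.6% in replicate 1 and 3.17% in replicate 2, while Gm42418 alone held 16.9% and 42.8%. The part of this difference between the libraries in the ratios below was not tested beyond the change of scaling. Each count is given with an exact 95% Poisson interval, which leaves out every error but that of counting; PCR copies of a molecule are counted as separate reads.

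All 9 genes were detected above 1 TPM in both libraries. Together they held 235 TPM in replicate 1 and 150 TPM in replicate 2, or 0.0193% ± 0.00598 of all TPM (SD, n = 2 technical libraries). Their levels spanned a 31.8-fold range in replicate 1 and a 44.1-fold range in replicate 2, from Acta2 at the top to Cnn1 at the bottom. In bulk tissue, fewer cells of a type and less RNA per cell cannot be told apart. By the mean of the libraries the order was Acta2, Tagln, Rgs5, Myh11, Des, Actg2, Pdgfrb, Lmod1 and Cnn1. The ranges of the libraries separated Acta2 from Tagln and Myh11 from Des, and overlapped for the other 6 of the 8 pairs of neighbours. These ranges also hold the shift between the libraries, since all 9 genes lay higher in replicate 1. Within each library, Rgs5 lay above Myh11 with counting intervals that did not overlap. Des lay above Actg2, Pdgfrb above Lmod1 and Lmod1 above Cnn1 in both libraries, with counting intervals that overlapped in at least 1. Tagln and Rgs5 changed places between the libraries, as did Actg2 and Pdgfrb.

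**Figure D1:**
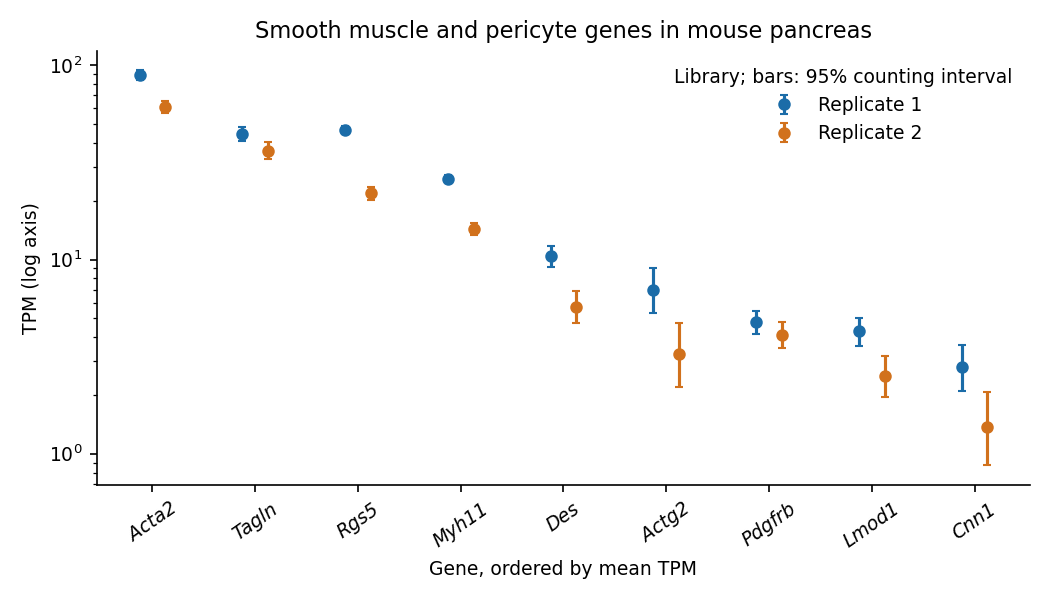
TPM of each gene (log axis) in replicate 1 (blue) and replicate 2 (orange), with 95% counting intervals as bars, ordered by mean TPM. All 9 genes lie higher in replicate 1, and Acta2 lies highest in both libraries, at 89.1 and 60.9 TPM.

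Acta2 (ENSMUSG00000035783.8, GRCm38 chromosome 19, 34241090 to 34255590, minus strand) encodes alpha smooth muscle actin, the main actin of vascular smooth muscle. It reached 89.1 TPM in replicate 1, from 1259 counts (interval 1190 to 1331), and 60.9 TPM in replicate 2, from 747 counts (694 to 803). Its mean level of 75.0 ± 19.9 TPM (SD, n = 2) was above that of 97.0% of the 10332 genes at 1 TPM or more in both libraries. It alone took 37.9% of the summed TPM of the 9 genes in replicate 1 and 40.5% in replicate 2.

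Actg2 (ENSMUSG00000059430.10, chromosome 6, 83512905 to 83536265, minus strand) encodes gamma smooth muscle actin, the actin typical of visceral smooth muscle. It lay at 6.97 TPM in replicate 1, from 57 counts (43.2 to 73.9), and at 3.28 TPM in replicate 2, from 29 counts (19.4 to 41.6). The level of Acta2 was 12.8-fold that of Actg2 in replicate 1 (95% exact interval 9.80 to 17.0) and 18.6-fold in replicate 2 (12.8 to 27.9). Acta2 was thus well above Actg2 in both libraries, and the intervals of the 2 ratios overlap.

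These actins are close copies, which matters for how reads are divided between them. The coding sequences of Acta2 and Actg2 in GENCODE M21, of 1131 and 1128 bases, were 84.2% identical, and the longest run of bases shared by their transcripts was 29 bases. The first coding bases of both genes are shown because they hold the changes that tell the transcripts apart at this end. Capitals mark bases that differ between the aligned sequences or face a gap, 11 in the first 60 bases of Acta2 and 8 in the first 57 bases of Actg2, read 5′ to 3′ from the start codon.
Acta2: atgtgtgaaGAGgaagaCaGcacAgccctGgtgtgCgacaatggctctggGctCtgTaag
Actg2: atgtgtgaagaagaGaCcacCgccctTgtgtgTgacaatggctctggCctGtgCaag
The deposited posterior standard deviation of the gene count was 0 for all 9 genes in both libraries, so the deposited gene totals carry no uncertainty from reads that match several genes. Of the other actins, Actg1 shared the longest run with Acta2, 56 bases, and Actb shared one of 47 bases.

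The non-muscle actins Actb and Actg1, present in nearly all cells, were higher than both smooth muscle actins. Actb lay at 236 TPM in the first library and 161 TPM in the second, and Actg1 at 160 and 142 TPM. The ratio of Acta2 to Actb was 0.378 in replicate 1 (interval 0.354 to 0.403) and 0.379 in replicate 2 (0.348 to 0.412), while that of Acta2 to Actg1 was 0.558 (0.517 to 0.602) and 0.429 (0.393 to 0.468). Acta2 thus kept nearly the same ratio to Actb in both libraries but not to Actg1. The deposited length of Actg1, which follows the estimated isoform mix, was 1213 bases in replicate 1 and 1650 in replicate 2. A greater length lowers TPM, so the ratio of Acta2 to Actg1 moved more in counts than in TPM. Actg1 had 1466 and 1602 counts, and Acta2 had 1259 and 747. The actins of striated muscle were near 0: Acta1 had 2 counts in replicate 1 and 0 in replicate 2, and Actc1 had 0 and 5.

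Myh11 (ENSMUSG00000018830.8, chromosome 16, 14194535 to 14291372, minus strand) encodes the smooth muscle myosin heavy chain, regarded as the most specific marker of the lineage. It lay at 26.0 TPM in replicate 1, from 1471 counts (1397 to 1548), and at 14.3 TPM in replicate 2, from 699 counts (648 to 753). Its TPM was 1.82-fold higher in replicate 1, and the counting intervals do not overlap. Against the non-muscle heavy chain Myh9, at 19.9 and 12.9 TPM, the ratio of Myh11 was 1.31 in replicate 1 (interval 1.20 to 1.43) and 1.11 in replicate 2 (0.998 to 1.24), an interval that includes 1. The deposited length of Myh9 differed here too, with 4807 and 7200 bases, while its counts were 807 and 684. Against Myh10 it was 5.82-fold and 3.54-fold higher. The coding sequences of Myh11 and Myh9 were 75.1% identical, with a longest shared run of 65 bases between the transcripts.

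Tagln, Cnn1 and Lmod1 encode proteins that bind actin filaments in smooth muscle. Tagln (ENSMUSG00000032085.4, chromosome 9, 45929619 to 45936058, minus strand), the gene of transgelin or SM22 alpha, reached 44.3 TPM in replicate 1, from 551 counts (506 to 599). In replicate 2 it lay at 36.3 TPM, from 392 counts (354 to 433). It was close to its broadly expressed relative Tagln2, with ratios of 0.886 (interval 0.788 to 0.995) and 1.06 (0.915 to 1.22). Tagln shares 108 bases with Pcsk7 on the opposite strand, a gene with 96 and 95 counts. No label or file says whether strand was used in counting, so reads from the shared bases may not be told apart.

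Cnn1 (ENSMUSG00000001349.4, chromosome 9, 22099216 to 22109630, plus strand), which encodes calponin 1, was the lowest of the 9 genes. It lay at 2.80 TPM in replicate 1, from 54 counts (40.6 to 70.5), and at 1.38 TPM in replicate 2, from 23 counts (14.6 to 34.5). The relatives Cnn2 and Cnn3, found in many cell types, were higher in both libraries: Cnn3 stood 10.2-fold above Cnn1 in replicate 1 (7.66 to 13.8) and 12.9-fold in replicate 2 (8.40 to 20.7). Tagln stood 15.8-fold above Cnn1 in replicate 1 (12 to 21.3) and 26.3-fold in replicate 2 (17.3 to 42.0).

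Lmod1 (ENSMUSG00000048096.7, chromosome 1, 135324807 to 135368065, plus strand) encodes leiomodin 1, which nucleates actin filaments. It lay at 4.26 TPM in replicate 1, from 141 counts (119 to 166), and at 2.52 TPM in replicate 2, from 72 counts (56.3 to 90.7). The level of Myh11 was 6.11-fold that of Lmod1 in replicate 1 (5.14 to 7.32) and 5.68-fold in replicate 2 (4.45 to 7.35), ratios that agree within counting error.

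Des (ENSMUSG00000026208.9, chromosome 1, 75360329 to 75368579, plus strand) encodes desmin, the intermediate filament of muscle cells, which pericytes and pancreatic stellate cells also carry. It lay at 10.4 TPM in replicate 1, from 260 counts (229 to 294), and at 5.71 TPM in replicate 2, from 114 counts (94 to 137). Vimentin, Vim, the intermediate filament of mesenchymal cells at large, was 6.14-fold higher than Des in replicate 1 (5.36 to 7.06) and 15.6-fold higher in replicate 2 (12.8 to 19.2). The deposited length of Vim, which enters its TPM, was 2194 bases in replicate 1 and 1419 in replicate 2, while its counts were 1133 and 850.

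Rgs5 (ENSMUSG00000026678.6, chromosome 1, 169655501 to 169695813, plus strand) encodes a regulator of G protein signalling that is abundant in pericytes and some arterial smooth muscle. It reached 46.5 TPM in replicate 1, from 1596 counts (1519 to 1676), and 21.9 TPM in replicate 2, from 652 counts (603 to 704). It had the most counts of the 9 genes in replicate 1 and stood 2.12-fold higher there in TPM. Its neighbour on chromosome 1, Rgs4, at 4.04 and 3.05 TPM, was 11.5-fold lower in replicate 1 (9.37 to 14.2) and 7.20-fold lower in replicate 2 (5.56 to 9.46).

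Pdgfrb (ENSMUSG00000024620.7, chromosome 18, 61045150 to 61085061, plus strand) encodes the PDGF receptor beta of pericytes, smooth muscle and fibroblasts. It lay at 4.74 TPM in replicate 1, from 217 counts (189 to 248), and at 4.11 TPM in replicate 2, from 163 counts (139 to 190). It differed least between the libraries of the 9 genes, by 1.15-fold in TPM, and its counting intervals in TPM overlap. The fibroblast receptor Pdgfra lay at the same level, with a ratio to Pdgfrb of 1.00 in replicate 1 (0.833 to 1.20) and 1.06 in replicate 2 (0.856 to 1.30). Rgs5 was 9.80-fold above Pdgfrb in replicate 1 (8.50 to 11.3) and 5.34-fold in replicate 2 (4.49 to 6.38). These pericyte genes thus did not keep 1 ratio in TPM, with counting error alone considered. Their main transcripts differ in GC content, at 41.1% for Rgs5 and 55.1% for Pdgfrb. The ratios are not corrected for the GC and length trend given below.

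All 9 genes had a higher TPM in replicate 1, as did 65.8% of all genes at 1 TPM or more in both libraries. To take this shift out, the counts of replicate 2 and replicate 1 were compared after TMM scaling, which centres most genes on a ratio of 1. This comparison is between libraries of 1 sample and has no replicate check, so no p-value is given, and each log2 ratio carries an exact 95% Clopper-Pearson interval. Of 12445 genes whose mean count was 10 or more, 14.5% differed by 2-fold or more, 9.32% higher and 5.18% lower in replicate 2. None of the 9 genes did. None did either with DESeq2 size factors, upper quartile factors or totals taken without the dominant genes, where 14.6%, 14.3% and 14.5% of all genes were past 2-fold.

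Of the 9 genes, 8 had a log2 ratio below 0, against 50.7% of all genes compared, and their median was -0.48, against -0.01 for all. The interval lay wholly below 0 for 6 genes and wholly above 0 for none, while in all genes these shares were 21.0% and 22.0%. The 6 genes were Rgs5 at -0.81 (-0.94 to -0.68), Cnn1 at -0.73 (-1.52 to -0.02), Des at -0.70 (-1.04 to -0.38), Myh11 at -0.59 (-0.72 to -0.46), Lmod1 at -0.48 (-0.92 to -0.07) and Acta2 at -0.27 (-0.40 to -0.14). Actg2 at -0.48 (-1.19 to 0.18), Tagln at -0.01 (-0.20 to 0.18) and Pdgfrb at 0.07 (-0.23 to 0.37) had intervals that span 0.

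The genes thus differed among themselves by TMM, and a change of scaling factor moves all of them by the same amount. Removing a trend on base composition and length, given below, moves them by unequal amounts. The interval of Rgs5 overlaps neither that of Acta2 nor those of Tagln and Pdgfrb, and the interval of Myh11 also lies below those of Acta2 and Tagln. The share of Rgs5 in the summed TPM of the 9 genes was 19.8% in replicate 1 and 14.6% in replicate 2. The share of Tagln was 18.9% in replicate 1 and 24.1% in replicate 2. The ratio of Acta2 to Rgs5 moved from 1.92 (1.78 to 2.07) in replicate 1 to 2.77 (2.49 to 3.09) in replicate 2, and that of Acta2 to Tagln from 2.01 (1.82 to 2.23) to 1.68 (1.48 to 1.90).

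With library totals in place of TMM factors, all log2 ratios shifted by -0.54 and all 9 genes lay below 0, as did 78.5% of all genes. Then 6 of the 9, namely Myh11, Cnn1, Actg2, Lmod1, Des and Rgs5, were 2-fold or more lower in replicate 2 and none was higher. In all genes 25.1% were past 2-fold on this scale, 22.0% lower and 3.12% higher. Base composition and length also moved with the ratio across genes. The main transcripts of the 9 genes had a GC content from 41.1% for Rgs5 to 56.5% for Des, against a median of 50.2% in all genes compared. After a trend on GC content and length was removed, an alternative chosen after seeing the data, the values of Rgs5 and Des were -0.49 and -1.13, so Des was then past 2-fold and Rgs5 no longer the lowest. Acta2 was then at -0.28, Tagln at -0.22, Pdgfrb at -0.14 and Myh11 at -0.64. Rgs5 thus lay closer to Acta2, Tagln and Pdgfrb than by TMM. All 9 genes then lay below 0, with a median of -0.64, where 53.1% of all genes did. On that scale 10.3% of all genes were past 2-fold, 5.56% lower and 4.75% higher.

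**Figure D2:**
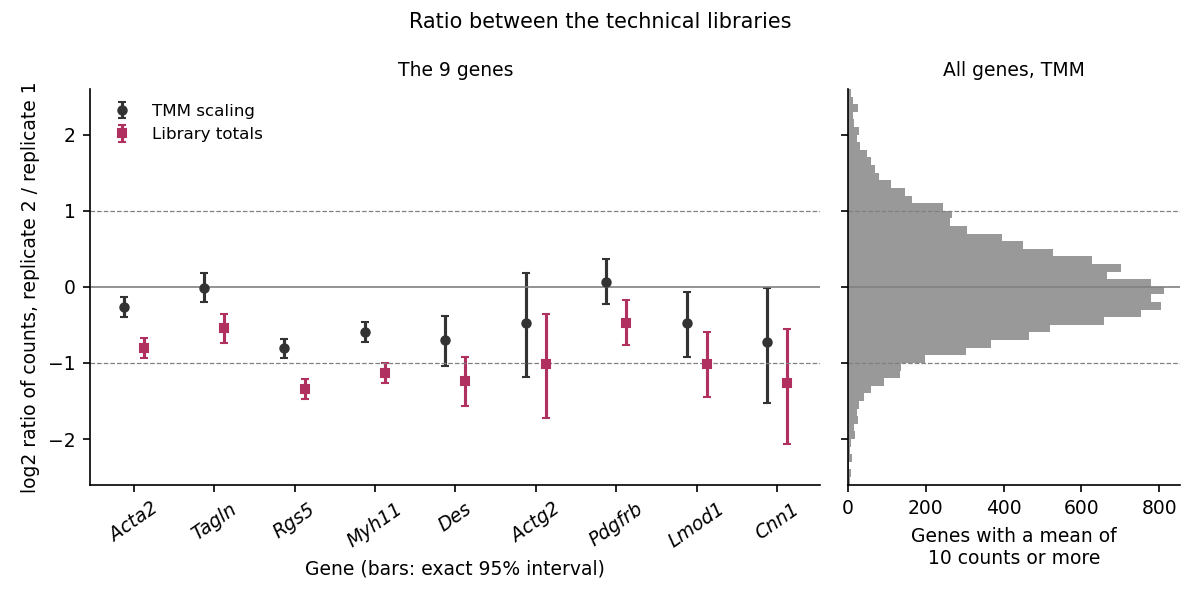
Left, log2 ratio of counts in replicate 2 to replicate 1 for each of the 9 genes, under TMM scaling (black) and library totals (red), with exact 95% intervals. Right, the number of genes at each TMM ratio, drawn within 2.6 on either side of 0, which leaves out 110 genes. Dashed lines mark a 2-fold difference, and the black points of the 9 genes lie between -0.81 and 0.07.

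The transcript tables split each gene into annotated isoforms, and the share of an isoform is its part of the gene's TPM. Acta2, Myh11, Cnn1, Tagln and Lmod1 have 1 transcript each in the annotation the authors used, so nothing can be said of their isoforms, including the alternative tails and heads of the smooth muscle myosin. Rgs5 has 2, and Rgs5-201 took all of its counts in both libraries.

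Actg2 has 5 transcripts, and its main isoform was not the same in both libraries. In replicate 1, Actg2-204 held 44.9% of its TPM, Actg2-202 37.9% and Actg2-201 17.2%, while in replicate 2 Actg2-201 held 91.2% and Actg2-204 none. These shares rest on 57 and 29 counts, and the deposited posterior standard deviation for Actg2-201 was 9.34 counts in replicate 1, against an estimate of 12.3. In the deposited posterior mean TPM, Actg2-201 held 22.9% and 55.8%. The isoform mix sets the length used for Actg2, so it also enters its TPM: the effective length was 936 bases in replicate 1 and 1175 in replicate 2.

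Pdgfrb has 2 transcripts of nearly equal length, 5407 and 5423 bases. Pdgfrb-201 took 100% in replicate 1 and 61.9% in replicate 2, with Pdgfrb-202 at 38.1%. Its posterior standard deviation was 37.0 and 37.1 counts, so the reads did not settle how the receptor's isoforms divide. Of Des, the full transcript Des-201 held 100% and 89.7%, and the retained intron form Des-202 held 10.3% in replicate 2 from 3.01 counts.

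**Figure D3:**
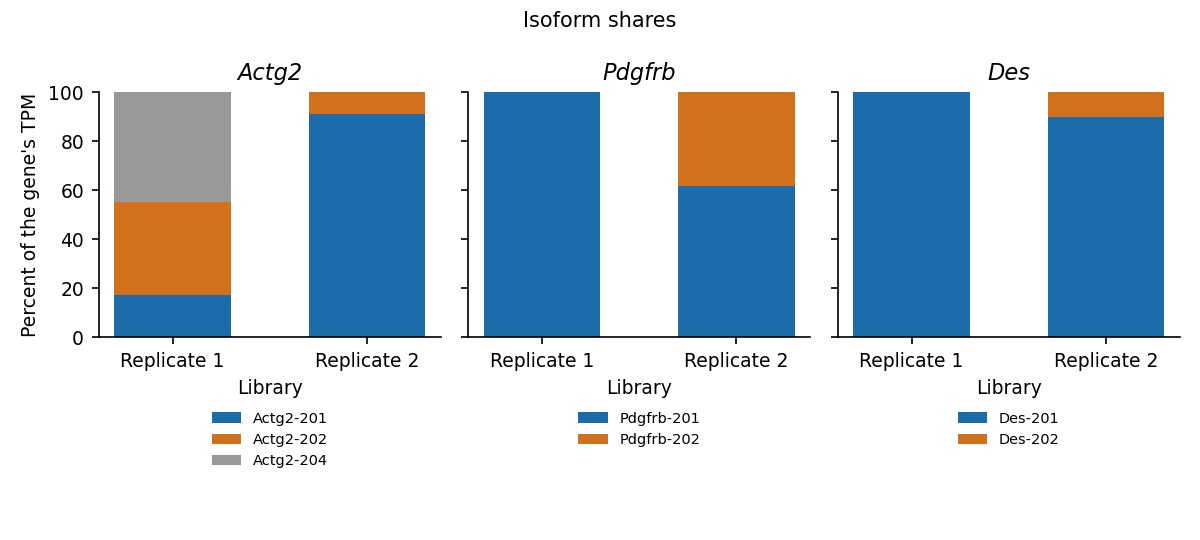
Percent of each gene's TPM in each annotated isoform of Actg2, Pdgfrb and Des, with 1 bar per library. Actg2-201 goes from 17.2% in replicate 1 to 91.2% in replicate 2, and Pdgfrb-202 appears only in the bar of replicate 2.

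Other genes of the contractile machinery were read over a wide range. Of 30 genes of the smooth muscle contractile apparatus and its regulators, 24 reached 1 TPM in both libraries, with medians of 5.81 and 3.89 TPM, beside 10.4 and 5.71 TPM for the 9 genes. Myl6, a myosin light chain used in muscle and non-muscle cells alike, was the most abundant, at 206 ± 12.8 TPM (SD, n = 2). Myl9, the regulatory light chain of smooth muscle myosin, followed at 49.5 ± 14.8 TPM, then the LIM protein gene Csrp1 at 46.3 ± 19.7 and the tropomyosin gene Tpm1 at 41.8 ± 11.8 (SD, n = 2 for each). Myl9 was 2.30-fold above Myh11 in replicate 1 (2.07 to 2.56) and 2.73-fold in replicate 2 (2.37 to 3.15).

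Between the libraries, 22 of these 30 genes had a log2 ratio below 0, with a median of -0.32, against 50.7% and -0.01 for all genes compared. Past 2-fold were 3 lower genes, the small heat shock gene Hspb6 at -1.45 (-2.20 to -0.79), Nexn at -1.10 (-2.17 to -0.21) and the phospholamban gene Pln at -1.06 (-2.24 to -0.08). The only higher one was Ppp1r14a, a myosin phosphatase inhibitor, at 1.98 (0.53 to 3.88) from 5 and 15 counts. Over all genes 5.18% were lower and 9.32% higher by this rule. With library totals 13 of the 30 were lower and 1 was higher, where 22.0% and 3.12% of all genes were. After the GC and length trend 3 were lower and none was higher, where 5.56% and 4.75% of all genes were.

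Genes listed as regulators upstream of these were low in this bulk RNA, which does not tell the cells they came from. Of 8 genes for transcription and Notch signalling, 7 reached 1 TPM in both libraries, led by Jag1 at 3.95 ± 1.48, Gata6 at 3.81 ± 1.44, Mrtfb at 3.42 ± 1.20 and Notch3 at 3.27 ± 0.467 TPM (SD, n = 2 for each). The serum response factor gene Srf lay at 3.17 and 2.83 TPM. The myocardin gene Myocd was the 1 gene below 1 TPM, at 0.580 and 0.990 TPM from 12 counts in each library. None was past 2-fold by TMM, where 14.5% of all genes were, and their median log2 ratio was -0.08. With library totals 2 were 2-fold lower, Gata6 at -1.05 and Mrtfb at -1.13, where 22.0% of all genes were. The list median was then -0.61. After the GC and length trend 1 was 2-fold lower, Srf at -1.03, where 5.56% of all genes were, with a median of -0.46. The CArG box was searched in RefSeq windows of 250 bases before to 50 after each gene start on GRCm38.p6. It is a palindromic element of 10 bases with 6 inner A or T bases, so a search of 1 strand covers both.

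Windows were found for 5 of the 9 genes, Acta2, Cnn1, Lmod1, Des and Rgs5. None held an exact CArG box, which 1.63% of all 32851 windows hold. Of the 5, only Acta2 held matches with 1 inner mismatch. A match with at most 1 inner mismatch, exact boxes included, is held by 9.98% of all windows. The stretches of Acta2 are shown because it was the most abundant of the 9 genes, and those of Srf and Myl9 because they carry exact boxes, 2 in Srf and 1 in Myl9. They are examples chosen after the search: of 38 contractile and transcription genes, 32 had windows, and 4 of these, Myl6, Myl9, Srf and Vcl, held an exact box, while 8 held a match with at most 1 inner mismatch. Capitals mark all matches: both are exact in Srf, the first is exact in Myl9, and the others have 1 inner mismatch.
Acta2, chr19:34255438-34255467, minus strand: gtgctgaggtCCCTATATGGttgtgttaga
Acta2, chr19:34255388-34255417, minus strand: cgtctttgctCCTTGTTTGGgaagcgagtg
Srf, chr17:46556203-46556262, minus strand: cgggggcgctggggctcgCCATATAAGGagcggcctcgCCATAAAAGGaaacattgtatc
Myl9, chr2:156775294-156775383, plus strand: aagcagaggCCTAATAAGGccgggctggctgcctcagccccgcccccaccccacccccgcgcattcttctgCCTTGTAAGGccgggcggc
Both matches of Acta2 lie before the RefSeq start and within exon 1 of Acta2-201 in GENCODE M21 (34255290 to 34255590), which starts farther upstream. A match is a description of the letters and not of binding.

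Other pericyte markers were lower than Rgs5. Of 15 genes, 12 reached 1 TPM in both libraries, with medians of 2.33 and 2.94 TPM, led by Vtn at 12.1 ± 1.65, Anpep at 11.6 ± 4.91, Mcam at 11.2 ± 1.68 and Steap4 at 5.56 ± 2.96 TPM (SD, n = 2 for each). The proteoglycan gene Cspg4, which encodes NG2, lay at 0.64 and 1.13 TPM, and the potassium channel gene Kcnj8 at 0.68 and 1.5 TPM. Of 13 with enough counts, Gja4 at 1.16, Kcnj8 at 1.39 and Cspg4 at 1.08 were 2-fold or more higher in replicate 2 on the log2 scale, and Ebf1 at -1.07 was lower, where 9.32% of all genes were higher and 5.18% lower. The intervals were 0.50 to 1.87 for Gja4, from 31 and 50 counts, and 0.35 to 2.56 for Kcnj8, from 12 and 23. They were 0.52 to 1.67 for Cspg4, from 44 and 67 counts, and -1.38 to -0.77 for Ebf1, from 356 and 121. By TMM, pericyte genes therefore lay on both sides of 0. Rgs5 was at -0.81, and Pdgfrb was at 0.07 with an interval that spans 0 (-0.23 to 0.37). With library totals 5 of the 13 were lower and none was higher, where 22.0% and 3.12% of all genes were. After the GC and length trend Kcnj8, at 1.29, was the only one past 2-fold, where 10.3% of all genes were. Gja4 was then at 0.43, Cspg4 at 0.64 and Ebf1 at -0.75.

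Of the ligands that act on PDGF receptors, Pdgfa reached 16.6 and 10.7 TPM, Pdgfb 5.19 and 8.64 TPM, and Pdgfd 5.46 and 3.44 TPM. In the list of 8 PDGF and angiopoietin genes Pdgfb, the endothelial ligand of Pdgfrb, was 2-fold higher in replicate 2, at 1.01 (0.67 to 1.35), and Angpt2 was 2-fold lower (-1.86 to -0.25) from 54 and 19 counts. By the same rule 9.32% of all genes were higher and 5.18% lower. Pdgfb was at 0.47 with library totals and at 0.25 after the GC and length trend, and Angpt2 at -1.54 and -0.84. The receptor gene Tek lay at 9.51 ± 1.30 TPM and Pdgfra at 4.54 ± 0.283 TPM (SD, n = 2).

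Markers of other cells that share genes with the 9 were set beside them. None of 14 striated muscle markers reached 1 TPM in both libraries, and their summed level was 2.86 TPM in replicate 1 and 1.92 TPM in replicate 2. Myh2, Myh4, Myh7, Tnni2 and Tnnc2 had no counts in either library, which allows up to 0.318 CPM (counts scaled to library depth, at 3 counts) in replicate 1 and 0.306 CPM in replicate 2. Of the others, Myl1, Tnnt2, Tnnt3 and Actc1 had means of 0.645, 0.530, 0.485 and 0.250 TPM. Des, a gene of striated muscle too, lay at 10.4 TPM in replicate 1 and 5.71 TPM in replicate 2. The part of striated muscle in its level was not tested.

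Fibroblast markers had a higher median than the 9 genes. All 8 reached 1 TPM in both libraries, with medians of 36.0 and 30.0 TPM and summed levels of 758 and 606 TPM, led by Dcn at 330 ± 159, Gsn at 193 ± 60.7, Col3a1 at 56.5 ± 4.26 and Dpt at 40.7 ± 7.47 TPM (SD, n = 2 for each). Dcn stood 93.3-fold above Pdgfrb in replicate 1 (81.5 to 107) and 53.0-fold in replicate 2 (45.2 to 62.4). Between the libraries the list's median log2 ratio was -0.05, and its 2 most abundant genes lay on opposite sides of 0, Dcn at -0.74 (-0.81 to -0.68) and Gsn at 0.93 (0.86 to 0.99). With library totals Dcn was at -1.28 and Gsn at 0.39. Of the stellate cell markers, Lrat and Gfap had no counts in either library, with the same upper limits, and Vim lay at 76.5 ± 17.9 TPM (SD, n = 2). The part of fibroblasts and stellate cells in the levels of Des and Pdgfrb was not tested.

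Endothelial markers, of the cells that pericytes cover, had medians of 29.1 and 18.7 TPM, with all 8 at 1 TPM or more in both libraries and sums of 323 and 273 TPM. They were led by Plvap at 113 ± 19.8, Pecam1 at 57.4 ± 21.6, Emcn at 48.2 ± 25.3 and Kdr at 24.8 ± 5.59 TPM (SD, n = 2 for each). Pecam1 was 1.57-fold above Rgs5 in replicate 1 (1.46 to 1.67) and 1.92-fold in replicate 2 (1.74 to 2.12). Between the libraries Emcn was 2-fold lower in replicate 2, at -1.01, and Tie1 2-fold higher, at 1.04, with a list median of -0.11, where 5.18% of all genes were lower and 9.32% higher. With library totals 3 of the 8 were 2-fold lower, Pecam1 at -1.02, Emcn at -1.55 and Cdh5 at -1.10, where 22.0% of all genes were. None was higher, with Tie1 at 0.51, where 3.12% of all genes were, and the median was -0.65. After the GC and length trend Emcn was at -0.83 and Tie1 at 0.53.

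**Figure D4:**
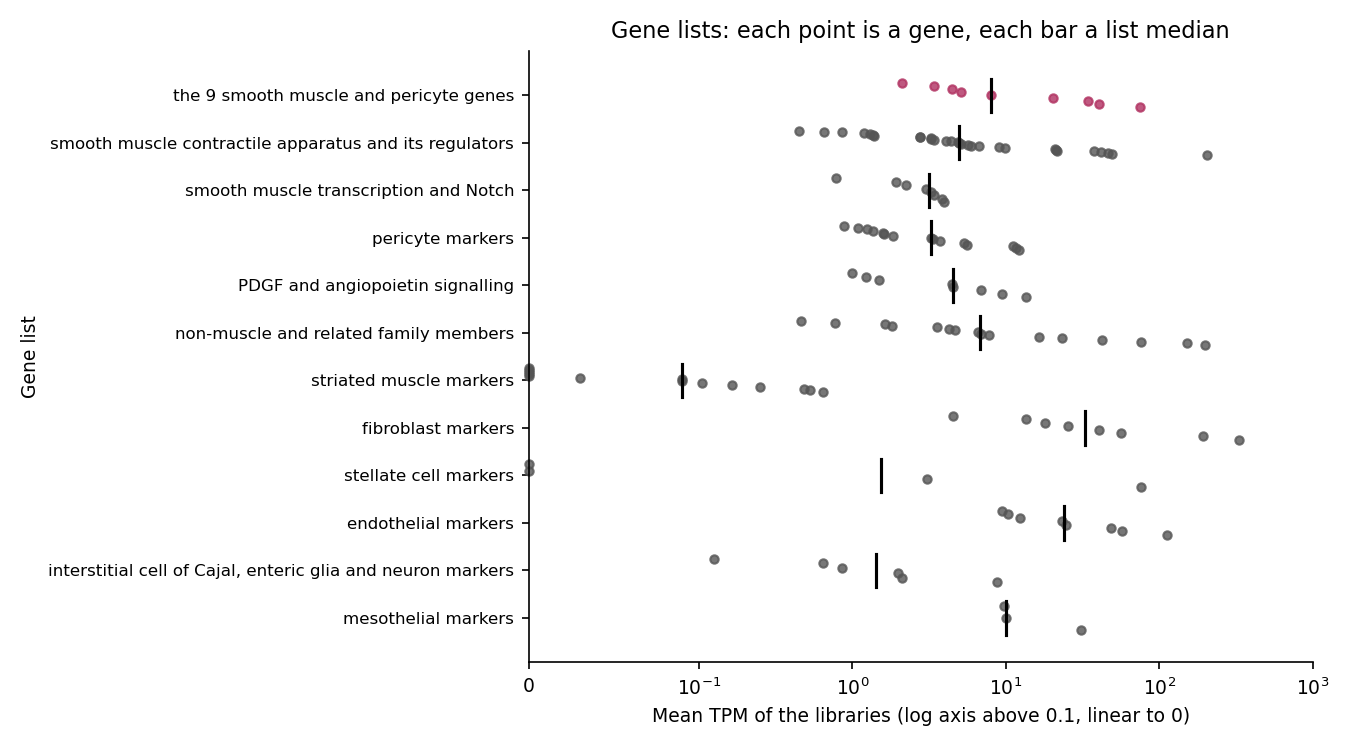
Mean TPM of the libraries for each gene (point) in the 9 smooth muscle and pericyte genes (red) and 11 other lists (grey), with list medians as bars, on an axis that is logarithmic above 0.1 TPM and linear below. Striated muscle markers lie below 1 TPM, and 7 of the 8 fibroblast markers and all 8 endothelial markers lie above 8.05 TPM, the median of the 9 genes.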

How the data were processed

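Polyadenylated RNA of 1 pancreas was read in 2 technical libraries. The authors deposited tables per gene and per transcript, quantified on mm10 with GENCODE M4 per the deposited README files; the aligner and the quantifier: not given in the sources used here. The deposited expected counts are estimates and were rounded to whole numbers. The deposited TPM is per effective length and scaled to the same sum in each library. The deposited FPKM and posterior mean TPM, a signal here, were alternatives. The deposited posterior standard deviation of a count is a score in counts. The 97 spike-in and 26248 numbered rows held 0 counts and were left out. GENCODE M21 (GRCm38, the same assembly) gave names and positions and matched 42462 of 43346 identifiers; Mkl1 and Mkl2 were found as Mrtfa and Mrtfb.

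TMM factors came from edgeR 4.0.16 in R 4.3.3 and size factors from DESeq2 1.42.0. Each side of the comparison is 1 library, which leaves edgeR's quasi-likelihood test without residual degrees of freedom, so ratios, with 0.5 added to both counts, are given with exact intervals from scipy 1.17.1. Genes whose mean count was 10 or more were compared, and called means 2-fold or more. The interval script was checked on simulated counts. Sequences were aligned with Biopython 1.88. Alternatives covered scaling, filters, pseudocount, estimate, call rule and library. The 9 genes, 11 other lists and all choices were made with earlier results of these data known. Named were the 9 genes, the 4 most abundant genes of each list, list genes past 2-fold and list genes with no counts; others named were chosen after their values were seen, and some genes under this rule are not reported here. Likeness of pattern was not measured, since 2 libraries of 1 sample give 1 difference.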

Additional observations from a re-analysis of the deposited data

How the results depend on the processing

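The median level of the 9 genes, 8.05 TPM, was 7.85 in the posterior mean and 13.1 when TPM was rescaled without mitochondrial genes, Gm42418, Gm26917 and Lars2, and 5.71 to 10.4 with 1 library left out. Under the same rescaling their share of TPM was 0.0315%, and with 1 library left out it was 0.0150% to 0.0235%. Ordered by expected count, which is not per length, 1 of 9 genes kept its place. The number of the 9 genes past 2-fold, 0 by TMM, was 6 with library totals and 1 after the GC and length trend. It was 0 under the other 9 alternatives, although Cnn1 and Actg2 were not compared at a mean of at least 50 counts. Dropping or raising the filter, or adding an exact binomial test or interval rule to the call, left the TMM ratios unchanged. Such settings could not raise the number above 0. The posterior mean count also gave the same ratios for the 9 genes. Changes of scaling could move the number, and it stayed 0 with DESeq2 size factors, upper quartile factors and totals without the dominant genes. The number of all genes past 2-fold, 1805 by TMM, with 64.3% higher in replicate 2, was 3126 with library totals (12.4% higher), 5505 with no filter, 649 at a mean of at least 50 counts and 372 where the whole interval had to lie past 2-fold (78.0% higher). It was 1803 with totals taken without the mitochondrial genes, Gm42418, Gm26917 and Lars2 (48.3% higher) and 1268 after the trend (46.1% higher). Of list genes, 81 reached 1 TPM in both libraries and 43 reached 5 TPM. Cnn1, Actg2 and Lmod1, with 23 to 72 counts in replicate 2, have wide intervals. No paired analysis was possible because the 2 libraries form 1 group.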

Other observations

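Markers of cells that neighbour smooth muscle in the gut wall or cover the organ were also read. Of the markers of interstitial cells of Cajal, the chloride channel gene Ano1, also a gene of acinar cells, lay at 8.74 ± 1.65 TPM and Kit at 1.98 ± 0.672 TPM (SD, n = 2 for each). The glial marker S100b lay at 0.855 ± 0.502 TPM (SD, n = 2). All 3 mesothelial markers reached 1 TPM in both libraries. Upk3b lay at 30.8 ± 0.297, Msln at 9.96 ± 4.3 and Lrrn4 at 9.67 ± 1.5 TPM (SD, n = 2 for each), so each lay above Lmod1 and Cnn1. Msln had a log2 ratio between libraries of 1.18 (0.85 to 1.53), which was 0.65 with library totals and 0.76 after the GC and length trend, below 2-fold in both. Upk3b had one of 0.30 (0.12 to 0.47), which is -0.24 with library totals.

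Among the broadly expressed relatives of the 9 genes, 13 of 16 reached 1 TPM in both libraries, and the median log2 ratio of the 15 with enough counts was 0.02. By TMM only Myh14 reached 2-fold (0.35 to 1.69), from 34 and 49 counts, where 14.5% of all genes did. The cytoplasmic actins differed in direction: Actb was at -0.29 (-0.37 to -0.21) and Actg1 at 0.61 (0.51 to 0.71), and with library totals they were at -0.82 and 0.07, so the choice of actin as a reference would move the ratio of every one of the 9 genes.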
